A study of Homo sapiens with 2 samples.

Results

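Chromosome 12 carried 503 of the 10342 peaks (4.86%) in a list that compared chromatin immunoprecipitation (ChIP) with input DNA in MDA-MB-231 cells. Every peak that the list places on this chromosome was included, whatever its score or width. MDA-MB-231 is an established human breast cancer cell line, used here as wild-type cells with no treatment named. The study describes constant overproduction of brachyury in this line. The antibody was directed against brachyury, as the methods of the study state, while the input DNA did not go through the precipitation. There was 1 library of each kind and 1 list made from both, so no error between replicates can be given, and the number of reads in each library is unknown. The label of the first library names the cell line and no antibody, and it was taken as the ChIP library because the list is named as immunoprecipitation against input.

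Brachyury belongs to the T-box transcription factors. It binds DNA directly and directs the formation of mesoderm and notochord in the embryo. ChIP-seq recovers the DNA that lies near such a factor, and a peak is a stretch where the immunoprecipitated library holds more reads than the input predicts. Human chromosomes alternate between gene-rich stretches, which tend to be open and transcribed, and gene-poor stretches, which hold few and often very long genes and tend to replicate late. Chromosome 12 has a short arm, a centromere and a much longer long arm, and its long arm holds a well-known gene-rich part with the HOXC homeobox genes and the type II keratin genes, as well as a gene-poor part further out.

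The question addressed here is how the peaks were spread along the chromosome. Positions are those of the list and were read as GRCh37, since the submitters' processing notes name hg19, and bases count from 1. The arms were divided at 35.8 Mb. The segments from 48 to 58 Mb and from 78 to 92 Mb were taken as the gene-rich and the gene-poor segment, and 124 Mb was the distal limit, past which a fall in density had been seen earlier in this same list. Because the RefSeq gene table at hand is on another build, GRCh38.p14, no gene was assigned to a peak and only the order of genes was read from that table. VDR, the vitamin D receptor, and GLI1, a transcription factor of hedgehog signalling, are known to lie in the first segment. In gene order, 252 protein-coding genes were counted from VDR to GLI1, both included, and these held 9 HOXC genes and 27 keratin genes. NAV3, a neuron navigator protein, and DCN, which encodes the matrix proteoglycan decorin, are known to lie in the second segment. From NAV3 to DCN there were 37 protein-coding genes and neither HOXC nor keratin genes. The whole chromosome has 1024 protein-coding genes in the table, so these stretches held 24.6% and 3.61% of them.

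The density of chromosome 12 as a whole was not distinguished from that of the other chromosomes. The peaks spanned 133.2 Mb from the first to the last, at 3.78 peaks per Mb (exact Poisson 95% interval 3.45 to 4.12). The other 9839 peaks gave 3.52 per Mb of span. The ratio was 1.07 (exact 95% interval 0.978 to 1.17, exact two-sided binomial test, p = 0.131 and 0.197 after Benjamini-Hochberg adjustment over the 3 comparisons tested). Among 24 chromosomes its density ranked 10. The intervals and tests given here take each peak as an independent count and cover no other error, although neighbouring peaks may depend on each other. In windows of 5 Mb on chromosome 12, the variance of the counts was 4.21 times their mean. Independent counts at an even density have a variance near their mean, so the intervals are likely too narrow.

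The median size and strength of the peaks also resembled those elsewhere, while wide peaks made up a smaller share than on the other chromosomes pooled. The score is -10 x log10 of the p-value of a peak, so that 50 is the weakest value the list admits and larger is stronger. Its median was 58.7 on chromosome 12 (95% interval 57.7 to 59.7), with quartiles of 53.8 and 66.6, against 58.8 on the other chromosomes. The median width was 960 bp (95% interval 938 to 973 bp), with extremes of 472 and 2042 bp, against 959 bp elsewhere. Peaks of 1500 bp and more made up 2.98% (15 peaks, Wilson 95% interval 1.82 to 4.86). Elsewhere they made up 5.35% (526 peaks, Wilson 95% interval 4.92 to 5.81), and the widest reached 8644 bp. These 2 intervals do not overlap, and the difference was not tested. The share of wide peaks was not taken on each other chromosome, so a few of them may carry the pooled value. Scores of 100 or more were seen in 7 peaks (1.39%, Wilson 95% interval 0.676 to 2.84) and in 295 peaks elsewhere (3.0%, Wilson 95% interval 2.68 to 3.35). Only chromosomes 19 and 21 had a lower share among the other 22 with at least 50 peaks. The intervals of the 2 shares overlap, which does not show that the shares are equal, and the difference was not tested.

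The 8 highest scores were found on both arms and outside the gene-rich segment. That segment held only 20 peaks, 3.98% of those on the chromosome, too few to make the absence of such scores a trait of it. The top score, 221.47, belonged to the first peak of the chromosome, 827 bp wide, at 95157 to 95983, with 207 kb to the next peak. This was 1.73 times the second score. The second peak scored 127.73 at 45420182 to 45422153, in the long arm before the gene-rich segment, and with 1972 bp it was also the second widest peak. A score of 116.47 was reached at 116661130 to 116661992, and a score of 102.01 at 116552313 to 116553103. These peaks lie close together in the outer long arm, and the latter had a further peak only 3.42 kb to its right. On the short arm, away from its end, the strongest peak scored 112.11 at 21956177 to 21956712 and was 536 bp wide. The others were 104.61 at 119512886 to 119514128, 104.54 at 68964708 to 68965275 and 96.49 at 79724829 to 79725963, the last being the strongest of the gene-poor segment. No replicate was at hand to give the error of any of these scores.

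**Figure D1:**
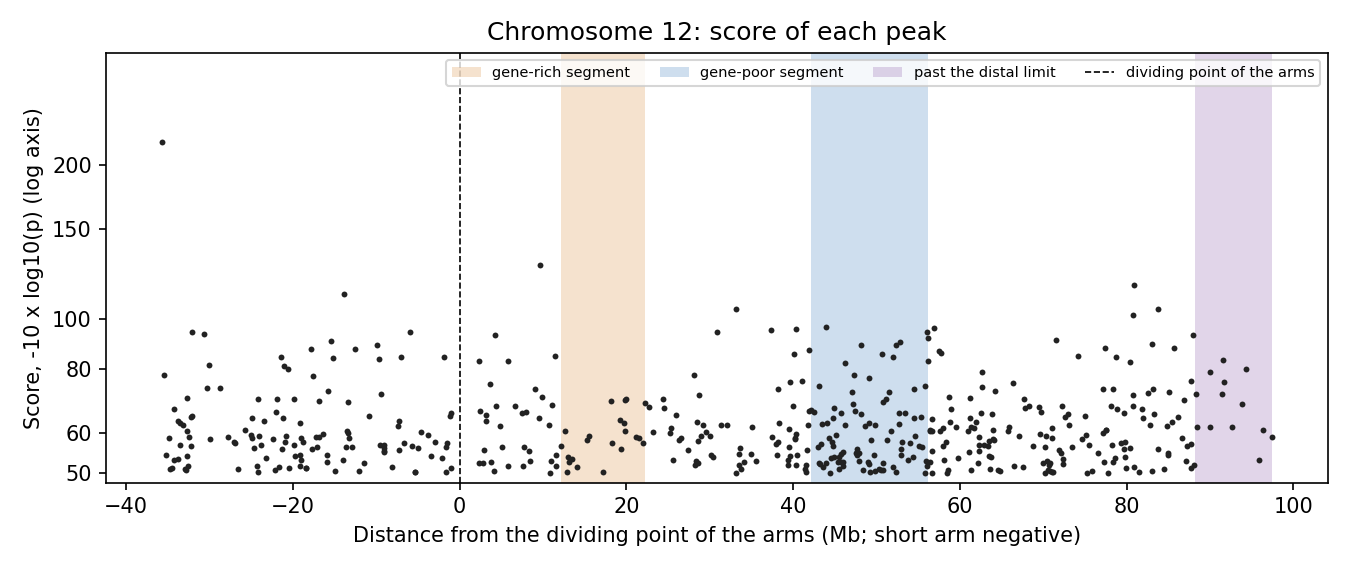
Score of each of the 503 peaks (points, log axis) against its distance from the dividing point of the arms, with the gene-rich segment, the gene-poor segment and the part past the distal limit shaded. Apart from the first peak at 221.47, scores lay between 50.02 and 127.73 along the whole chromosome, and the part past the distal limit shows few points near the floor.

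The density of the short arm did not differ from that of the long arm beyond counting error. The short arm held 126 peaks at 3.53 per Mb (95% interval 2.94 to 4.20). The long arm held 377 peaks at 3.87 per Mb (95% interval 3.49 to 4.28). The ratio of the short to the long arm was 0.912 (exact 95% interval 0.740 to 1.12, exact two-sided binomial test, p = 0.392, adjusted p = 0.392), so that a short arm anywhere from 0.740 to 1.12 times as dense as the long arm remained possible. The longest interval without a peak, 3.35 Mb from 34736009 to 38082417, contained the dividing point of the arms. Whether reads can be placed there at all was not examined, so the lack of peaks is no finding about the centromere. It was flanked by a peak with a score of 65.71 at 34734982 to 34736008 and by one with a score of 82.94 at 38082418 to 38083444, both 1027 bp wide.

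The intervals of the arms overlapped in the median score and in the share of narrow peaks. Median scores were 58.5 on the short arm (95% interval 56.9 to 59.6) and 58.97 on the long arm (95% interval 57.7 to 60.5). Peaks of 1500 bp and more numbered 15 on the chromosome, and the long arm held all of them. On the short arm there were 0 of 126 (Wilson 95% interval 0 to 2.96%). A simpler limit for a count of 0, 3 counts out of the total, gives up to 2.38%. The share on the long arm was 3.98% (Wilson 95% interval 2.43 to 6.46). The Wilson intervals overlap slightly, while the limit of 3 counts lies below 2.43%. Whether the arms differ in wide peaks was not tested. Narrow peaks, under 700 bp, made up 5.56% of the short arm (7 peaks, Wilson 95% interval 2.72 to 11.02) and 9.28% of the long arm (35 peaks, Wilson 95% interval 6.75 to 12.6). Their intervals overlap. Narrow peaks had the higher scores, with a median of 68.8 against 57.7 in the 446 peaks from 700 to under 1500 bp, and the wide peaks had a median of 66.0.

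The named extremes of width all lay on the long arm. The widest peak, 2042 bp, scored 61.62 at 97134145 to 97136186. After the peak of 1972 bp given above, 1888 bp was reached at 76093568 to 76095455 with a score of 95.45, and again at 99356151 to 99358038 with a score of 57.74. The narrowest, 472 bp, scored 64.11 at 97043534 to 97044005, only a short way before the widest. The next narrowest were 485 bp wide with a score of 96.05 at 92673643 to 92674127, and 504 bp wide with a score of 67.72 at 116625171 to 116625674.

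In windows of 5 Mb the number of peaks rose and fell several times along the chromosome. The 25 whole windows held 19 ± 8.95 peaks (SD over windows), from 5 to 39. On the short arm the 6 windows from 5 to 35 Mb held 9 to 24 peaks, and the stretch before 5 Mb held 24. From 40 to 75 Mb, in the inner long arm, 7 windows held 5 to 17. The next 5 windows, from 75 to 100 Mb, held 34, 39, 28, 34 and 28 peaks. The 6 windows from 100 to 130 Mb held 7 to 27. The groups from 40 to 75 and from 75 to 100 Mb did not overlap, but their limits were set after the counts had been seen, and they are given as a description.

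The fullest window, from 80 to 85 Mb, held 39 peaks, a number reached or passed by 7 of 555 windows in the list, itself included. It was followed by the windows from 75 to 80 and from 90 to 95 Mb with 34 each. The emptiest were those from 50 to 55 Mb with 5 peaks, from 125 to 130 Mb with 7 and from 5 to 10 Mb with 9. Dividing the variance of these counts by their mean gave 4.21. The value depends on the setting, being 1.80 in windows of 1 Mb and 1.80 among peaks at or above the median score of the list. With all peaks in windows of 5 Mb, it ran in the 22 other chromosomes with at least 50 peaks from 0.525 on chromosome 15 to 9.05 on chromosome 22 with a median of 1.96, and 15 of them lay below chromosome 12. Chromosomes 10 and 11, which are of nearly the same length, had ratios of 1.74 and 1.89, with 13 to 36 and 11 to 36 peaks per window. The fullest window of 1 Mb, from 106 to 107 Mb, lay outside the dense stretch and held 12 peaks. Their scores were low, from 50.03 to 61.38 with a median of 52.1.

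**Figure D2:**
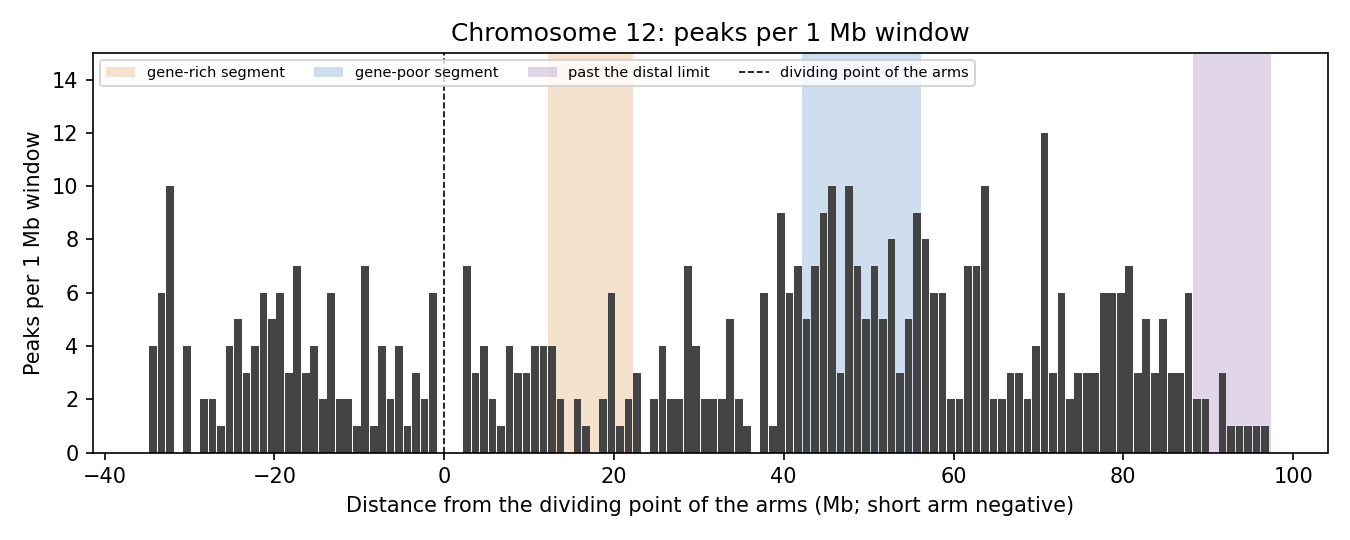
Number of peaks in each of 132 whole windows of 1 Mb (bars) against distance from the dividing point of the arms. The tallest bar holds 12 peaks, 10 windows are empty, and bars are low in the gene-rich segment and past the distal limit and high in and around the gene-poor segment.

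The gene-rich segment held fewer peaks per Mb than the gene-poor segment. There were 20 peaks from 48 to 58 Mb, at 2.0 per Mb (95% interval 1.22 to 3.09). There were 93 peaks from 78 to 92 Mb, at 6.64 per Mb (95% interval 5.36 to 8.14). The gene-poor segment was therefore 3.32 times as dense (exact 95% interval 2.03 to 5.69, counting error only). In windows of 1 Mb, the gene-rich segment held 4, 2, 0, 2, 1, 0, 2, 6, 1 and 2 peaks from left to right. The gene-poor segment held 5, 7, 9, 10, 3, 10, 7, 5, 7, 5, 8, 3, 5 and 9. The ranges of 0 to 6 and 3 to 10 overlap, while 8 of 10 windows of the first held fewer than 3 peaks and 0 of 14 of the second did. The limits of the segments were proposed with earlier results of this list known and peaks are clustered, so the ratio is given as a description without a p-value.

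Against the rest of the chromosome, the density was lower in the gene-rich segment and higher in the gene-poor one. The ratios given here are descriptions, since the limits were proposed with results known and the intervals cover counting error only. For the gene-rich segment, the rest includes the dense stretch from 75 to 100 Mb, at 6.52 per Mb. The gene-rich segment held 3.98% of the peaks on 7.51% of the length, 0.510 times the density of the rest (exact 95% interval 0.309 to 0.796). The gene-poor segment held 18.5% of the peaks on 10.5% of the length, 1.93 times the density of the rest (exact 95% interval 1.52 to 2.42). The dense stretch reached beyond it on both sides, and from 75 to 100 Mb there were 163 peaks, 32.4% of the chromosome's peaks on 18.8% of its length. Between the segments, from 58 to 78 Mb, the density was 3.35 per Mb (95% interval 2.60 to 4.25), and from 92 to 124 Mb it was 4.66 per Mb (95% interval 3.94 to 5.47).

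**Figure D3:**
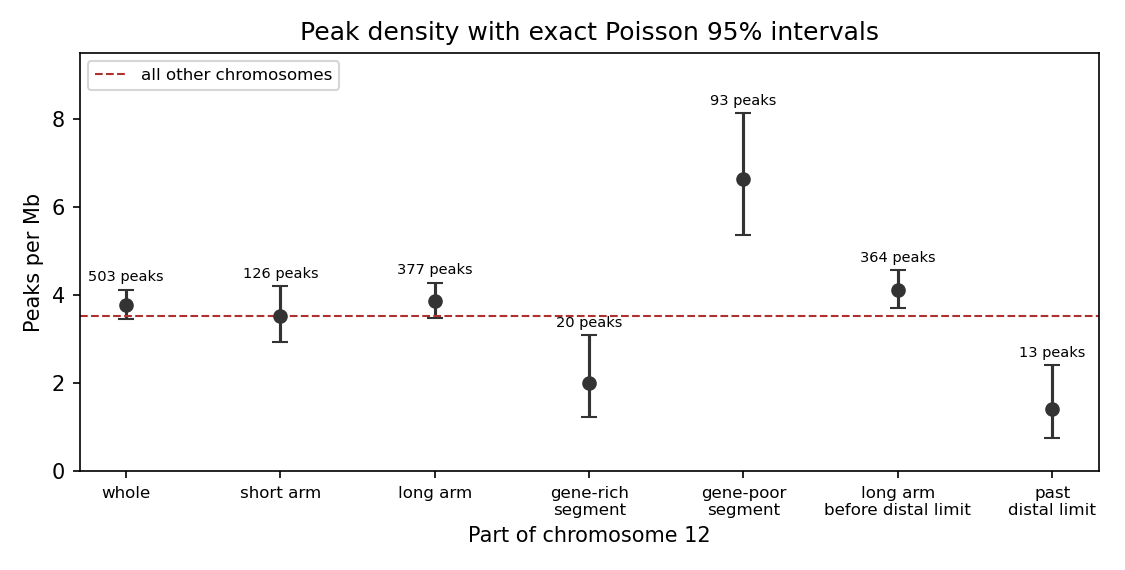
Peaks per Mb in each part of chromosome 12 (points) with exact Poisson 95% intervals (bars), the number of peaks above each, and the density of all other chromosomes as a dashed line at 3.52. The intervals of both arms include the line, the gene-poor segment lies above it at 6.64, and the gene-rich segment at 2.0 and the part past the distal limit at 1.41 lie below it.

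The peaks of the gene-rich segment were not spread evenly. Of the 20, there were 6 before 50 Mb, from the first at 48486397 to 48487442 (score 60.42) to the last at 49840707 to 49841565 (score 51.47). A further 4 lay close together at 55568122 to 55569036, 55629562 to 55630498, 55667140 to 55668155 and 55716662 to 55717298, with scores of 62.84, 60.42, 69.39 and 69.82. The last of these was the strongest and, at 637 bp, the only narrow peak of the segment. Between these groups lay an interval of 1.61 Mb without a peak, from 51375060 to 52989364, the third longest of the chromosome. It ended at a peak at 52989365 to 52990386, whose score of 50.33 was at the weak end of the list. In all, 5 intervals of over 1 Mb without a peak lay in the gene-rich segment, and 0 touched the gene-poor one, where the longest was 801 kb.

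The middle of the score distribution was similar in the 2 segments. The highest score was found in the gene-poor segment, but it held 93 peaks against 20, and a larger set tends to reach higher. The median score was 58.4 in the gene-rich segment (95% interval 53.9 to 60.4) and 57.3 in the gene-poor segment (95% interval 54.9 to 62.1). Highest scores were 69.82 and 96.49, and a score of 100 was reached in neither. Upper quartiles were 61.0 and 66.0. A score of 70 or more, a limit chosen after the scores had been seen, was found in 0 of 20 peaks of the gene-rich segment (Wilson 95% interval 0 to 16.1%, or up to 15% by the limit of 3 counts). It was found in 17 of 93 peaks of the gene-poor segment (18.3%, Wilson 95% interval 11.7 to 27.3). These intervals overlap, which does not show that the shares are equal, and the difference was not tested. The limit of 70 lies just above 69.82, the highest score of the gene-rich segment, so its 0 of 20 followed from the choice of limit. The share of peaks at or above the median score of the whole list was 45.0% (9 peaks, Wilson 95% interval 25.8 to 65.8) against 44.1% (41 peaks, Wilson 95% interval 34.4 to 54.2). Median widths were 900 bp (95% interval 854 to 1022 bp) and 985 bp (95% interval 956 to 1037 bp). Wide peaks numbered 0 of 20 (Wilson 95% interval 0 to 16.1%, or up to 15% by the limit of 3 counts) and 5 of 93 (Wilson 95% interval 2.32 to 11.97%). Among the peaks at or above the median score alone, densities were 0.900 and 2.93 per Mb, so the ratio was nearly as in the full list. If intervals of over 1 Mb without a peak were taken out of the length, 3.86 Mb of the gene-rich segment were left, at 5.18 peaks per Mb against 6.64, and the interval of the ratio of the gene-rich to the gene-poor segment, 0.780 (exact 95% interval 0.455 to 1.27), then included 1. The removal takes length only where peaks are sparse, and draws densities together by construction.

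The spacing of neighbouring peaks follows largely from the density and is no separate comparison. Across the chromosome the median interval between peaks was 152 kb, with quartiles of 74.3 and 334 kb, against a median of 159 kb on the other chromosomes. It was 120 kb in the gene-poor segment, 332 kb in the gene-rich segment and 194 kb on the short arm. Only 4 of the 502 intervals (0.797%) were under 1 kb, against 0.662% elsewhere. All 4 lay in the gene-poor segment, which held 18.5% of the peaks of the chromosome, and 4 pairs are too few to call this a trait of the segment. Peaks at 81750138 to 81751170 and 81751809 to 81752765 were 638 bp apart. Those at 87759652 to 87760508 and 87760672 to 87761679 were the closest, 163 bp apart, and their scores were 51.59 and 84.29. The other pairs were 169 bp apart near 90.3 Mb, with scores of 73.2 and 64.17, and 439 bp apart near 91.8 Mb, with scores of 51.75 and 94.16. These intervals are shorter than an ordinary peak is wide, and a caller set otherwise could have joined them.

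**Figure D4:**
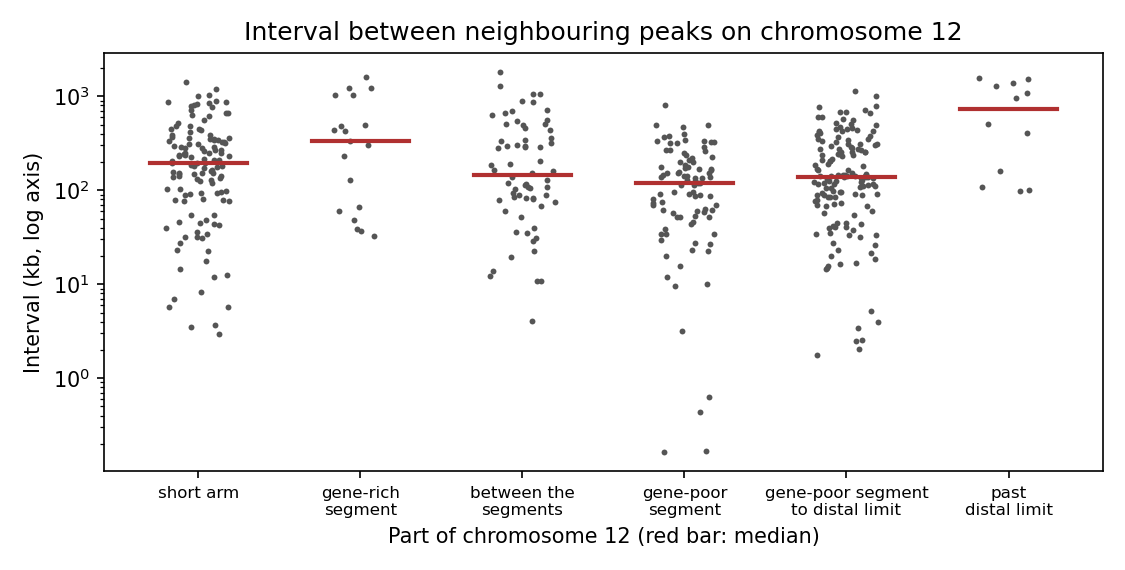
Interval between each pair of neighbouring peaks (points, kb, log axis) by part of the chromosome, with the median as a red bar. Intervals across a limit and those between the centromere and the gene-rich segment are not drawn. Medians were 120 kb in the gene-poor segment, 332 kb in the gene-rich segment and 734 kb past the distal limit. The 4 intervals under 1 kb lay in the gene-poor segment, which held 18.5% of the peaks.

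Past 124 Mb the density fell, and most of the peaks there scored at or above the median of the list. This limit was found on the same list, so its density is a description with no test. From 124 Mb to the last peak, over 9.24 Mb, there were 13 peaks at 1.41 per Mb (95% interval 0.749 to 2.40). The long arm before it held 364 peaks at 4.13 per Mb (95% interval 3.71 to 4.57), a ratio of 0.341 (exact 95% interval 0.180 to 0.590). The last peak before the limit, at 123887216 to 123888185, scored 51.99. The first past it, at 124069764 to 124071212, scored 71.59 and was the widest of the 13 with 1449 bp.

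The 13 peaks came alone or in small groups. After 124069764 to 124071212 came a peak at 124230141 to 124231172 with a score of 61.66, and then 1.52 Mb without a peak. Scores of 79.01 and 61.48 followed at 125750801 to 125751778 and 125849782 to 125850482, and then another 1.38 Mb without one. The densest group, at 127230103 to 127231085, 127338701 to 127339569 and 127441082 to 127442456, had scores of 71.47, 83.1 and 75.46, the middle one being the strongest past the limit. Single peaks stood at 128400309 to 128401227 (score 61.5), 129676474 to 129677288 (score 68.28) and 130088802 to 130089563 (score 79.96). The outermost were weaker, with 53.01 at 131648985 to 131650185, 60.75 at 132161000 to 132161818 and 58.97 at the last peak of the chromosome, 133243814 to 133244894. From 128 to 133 Mb each window of 1 Mb held 1 peak.

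The median score past the limit lay above that before it, though not the highest score. Scores ran from 53.01 to 83.1 past the limit, within the range of 50.02 to 127.73 in the long arm before it. The median was 68.3 (95% interval 60.8 to 79.0), against 58.6 in the long arm before the limit (95% interval 57.5 to 60.4). At or above the median score of the whole list were 12 of 13 peaks (92.3%, Wilson 95% interval 66.7 to 98.6), against 180 of 364 before the limit (49.5%, Wilson 95% interval 44.3 to 54.6). The intervals do not overlap, and the difference was noticed in the data and not tested. It follows that the fall was smaller among the stronger peaks, which numbered 1.30 per Mb past the limit and 2.04 per Mb before it, a ratio of 0.636 (exact 95% interval 0.323 to 1.14) that includes 1. Of the 20 intervals of over 1 Mb without a peak on the chromosome, 5 lay past the limit. Without such intervals the length left past the limit was only 2.43 Mb and the direction turned, at 5.35 per Mb past the limit and 4.96 before it, a ratio of 1.08 (exact 95% interval 0.569 to 1.87). The removal takes out the sparse length that makes up most of the fall, so this turn follows largely from its construction.

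A low density in the outermost stretch was seen on some chromosomes and not on others. With the last 9.24 Mb before the last peak taken on each of 23 chromosomes, the ratio of its density to the rest of the chromosome was 0.356 on chromosome 12 (exact 95% interval 0.188 to 0.614). On the other 22 it ran from 0.360 to 4.02 with a median of 0.923. The nearest was chromosome 18, at 0.360 (exact 95% interval 0.153 to 0.727), which cannot be told from chromosome 12. Intervals also lay below 1 on chromosome 2, at 0.616 (exact 95% interval 0.375 to 0.958), and on chromosome 14, at 0.658 (exact 95% interval 0.431 to 0.967). Chromosomes 10 and 11 had 41 and 39 peaks in the same length, with ratios of 0.979 and 0.870. The length was chosen on chromosome 12 and favours a low value there. The opposite end of chromosome 12 showed no such fall, with 33 peaks in the first 9.24 Mb, at 3.57 per Mb.

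**Figure D5:**
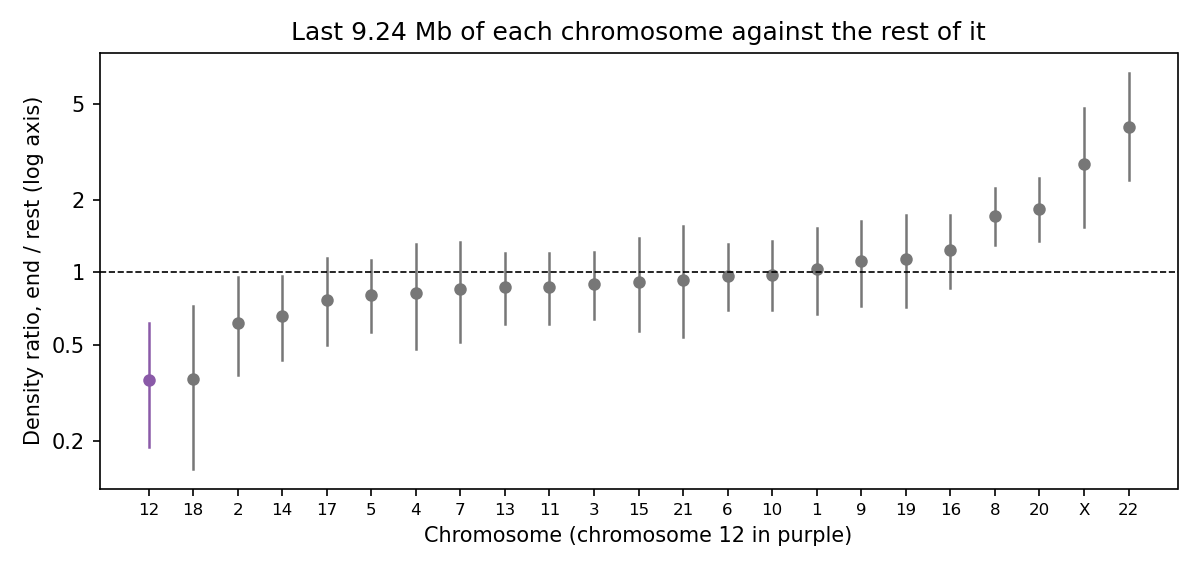
Density of peaks in the last 9.24 Mb of each of 23 chromosomes divided by the density in the rest of it (points, log axis), with exact 95% intervals (lines) and chromosome 12 in purple. Chromosomes 12 and 18 lie lowest, at 0.356 and 0.360, and chromosome 22 highest, at 4.02.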

How the data were processed

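The authors deposited 1 list of peaks that compares ChIP with input. Its peak names point to MACS, and its own name gives 1e-05 as the limit on the p-value. The submitters' processing notes name Bowtie2 2.1.0 and hg19 without their role, while the MACS version, the handling of duplicates and the use of any blacklist are not given in the sources used here. The score deposited with a peak was taken to be -10 x log10 of its p-value, since the lowest was 50. Starts were taken to count from 0, and 1 was added. A peak was placed by its midpoint.

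Length was the distance between stated limits or the outermost peaks. Densities were given exact Poisson intervals and ratios exact binomial (Clopper-Pearson) intervals. Intervals of medians came from order statistics. Windows were whole windows between the first and last peak. The exact binomial test planned for the gene-rich against the gene-poor segment is counted among the 3 for the adjustment, but its p-value is not given, since the limits were proposed with results known. The functions were tested on simulated counts. The work was done in Python 3.11.15 with scipy 1.17.1, numpy 2.4.6 and pandas 2.3.3.

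The members, limits and gene pairs were chosen with earlier results of these data known. The comparisons with the rest of the chromosome, the stretch from 75 to 100 Mb and the ends of other chromosomes were added once the counts were known. Peaks were named by a rule: the 8 highest scores, 3 widest (with ties) and 3 narrowest, the outermost, those beside the centromere and the distal limit, the closest pair and the strongest of each segment. The remaining pairs under 1 kb, the groups in the gene-rich segment and the peaks past the distal limit were named after their values were seen. The sequence of the peaks and the genes at them were not analysed here. A design text on pericardial RNA does not match the labels and was set aside. Depth is unknown, since the list holds no read counts.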

Additional observations from a re-analysis of the deposited data

How the results depend on the processing

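Ratios were recomputed with stronger peaks alone, with close peaks merged, without empty intervals longer than 1 Mb and with shifted limits. Of 26 results under an alternative, 20 kept their direction and their side of the threshold or stayed within the interval of the reported value. This count is no measure of robustness. Merging left 499 of the 503 peaks of the chromosome, so a like result was nearly fixed in advance. The variance to mean ratio had no interval, so any other value of it was counted as moved. The ratio of chromosome 12 to the others ran from 1.01 to 1.07 and that of the arms from 0.839 to 0.922, with no call in any of them. The ratio of the gene-rich to the gene-poor segment, 0.301, ran from 0.266 to 0.333 except without the empty intervals, where it was 0.780 and its interval included 1. Past the distal limit the ratio of 0.341 became 0.636 among peaks at or above the median score and 1.08, reversed, without the empty intervals. It was 0.475 with the limit 2 Mb before and 0.304 with it 2 Mb past. The removal of empty intervals draws densities together by its construction. The variance to mean ratio was 1.80 in windows of 1 Mb, 5.67 in windows of 10 Mb and 1.80 among peaks at or above the median score in windows of 5 Mb. Without replicates or read counts, the error of single peaks cannot be given.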

Other observations

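Some scores recur in the list to within 0.01. The 3 commonest, 69.82, 62.13 and 77.79, were shared by 92, 67 and 63 peaks in the list and by 3, 5 and 3 peaks on chromosome 12. Together they made up 2.19% of the peaks of the chromosome (11 peaks, Wilson 95% interval 1.23 to 3.87), against 2.15% of the whole list (222 peaks). All 11 were narrow. Widths were 628 to 656 bp at 69.82, 643 to 687 bp at 62.13 and 566 to 574 bp at 77.79. On the short arm 3 of the 11 were found, 1 at each score. The strongest peak of the gene-rich segment was among those at 69.82. Recurrence on chromosome 12 was not confined to narrow peaks. A score of 50.33, for example, was found at 48719457 to 48720478 and again at 52989365 to 52990386, each 1022 bp wide.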
